A study of Mus musculus with 6 samples.

Results

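Genes that mark retinal ganglion cells, the output neurons of the eye, were followed in whole retinas of adult mice lacking the transcription factor Onecut2. The 10 marker genes were Pou4f1, Pou4f2, Pou4f3, Isl2, Rbpms, Rbpms2, Sncg, Thy1, Slc17a6 and Opn4, and every probe set that the platform annotation assigned to one of them alone was taken. This gave 14 probe sets of 8 genes out of 45101 probe sets on the array. No probe set carried the symbol Pou4f2, which was not analysed here, and the 1 probe set of Rbpms2 named a second gene as well, so no value of it is given.

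Retinas were isolated from OC2-KO mice, which carry a null allele of Onecut2, and from OC2-WT littermates, and the RNA of each sample was hybridized to an Affymetrix GeneChip mouse genome array. Each genotype had 3 arrays, and all 6 samples were labelled as adult retina, with no exact age and no agent. The study calls its animals full knockouts, unlike an earlier conditional line, and names no Cre driver. It reports that a substantial number of OC2-KO mice died soon after birth, so that adult retinas came from survivors. Because the labels do not say that the arrays of a genotype came from separate animals, p-values measure the spread between arrays, which may be technical.

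Ganglion cells receive the signals of bipolar and amacrine cells and send their axons through the optic nerve to the brain. They are born early from the same progenitors as horizontal cells, a window in which Onecut genes are expressed, and they use glutamate as their transmitter. They make up a small share of retinal cells, so that in whole-retina RNA a lower signal of a marker can come from fewer cells or from less RNA per cell, and these cannot be told apart. In adult OC2-KO retinas the study reported no significant difference in ganglion cells, by counts of Brn3b staining and by in situ hybridization.

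The arrays differed in the state of their RNA. The gap in log2 signal between the control probe sets of Actb (3′ minus 5′), which widens when RNA is degraded or incompletely copied, was 1.41, 0.74 and 3.39 on OC2-KO arrays 1, 2 and 3, against 1.11, 0.71 and 2.95 on OC2-WT arrays 1, 2 and 3 (p = 0.6 in a two-sided exact permutation test, which cannot go below 0.1). Both arrays numbered 3 stood apart from the other 4. Within pairs of equal number the Actb gap was wider on the OC2-KO array in all 3, by 0.30, 0.029 and 0.44. The same gap for Gapdh differed by 0.18, -0.026 and 0.26 in pairs 1, 2 and 3 (OC2-KO minus OC2-WT), so that pair 2 went the other way. Between the genotypes the Gapdh gap had p = 0.7 in the same exact permutation test. The part of these gaps in the values below was not tested. In addition, equally numbered arrays deviated together from their genotype means. Rod genes identified the tissue as retina, since all 8 with a probe set passed the filter on low values. Onecut2 itself had a higher signal on the OC2-KO arrays, by 2.40, 2.27 and 2.84 on the log2 scale for its 3 probe sets. On each probe set every OC2-KO array exceeded every OC2-WT array. The study describes this rise in its OC2-KO retinas and places the probe sets at the 3′ end of the gene. By its account the 5′ coding sequence was nearly absent in quantitative PCR and no Onecut2 protein was seen by staining. The probe sets themselves do not check the deletion, so that genotypes here rest on the labels.

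None of the measured ganglion cell markers passed the test for a difference between OC2-KO and OC2-WT retinas after adjustment over all probe sets, with or without pairing of the arrays. Of the 14 probe sets, 13 probe sets from 7 genes passed the filter, a mean log2 intensity above 7 in at least one genotype. With limma and Benjamini-Hochberg adjustment over all 21176 probe sets that passed, 0 of these 13 had an adjusted p under 0.05, where the background over all probe sets was 0%. At an unadjusted p under 0.05 the count was again 0 of 13, against a background of 0.987%. With the replicate number as a block it was 1 of 13, a probe set of Opn4, against a background of 4.19%. That probe set passed the filter through its OC2-WT mean alone, so its OC2-KO mean was bound to be lower. The 3 OC2-KO arrays lay entirely on one side of the 3 OC2-WT arrays for 0 of 13 probe sets, against 3.28% of all probe sets. Mean differences were between -0.46 and 0.33 on the log2 scale, with 4 above and 9 below 0, that probe set of Opn4 among the 9. All adjusted p-values from limma were 1.00, and half-widths of the 95% intervals, without the block, were between 0.448 and 1.65.

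**Figure D1:**
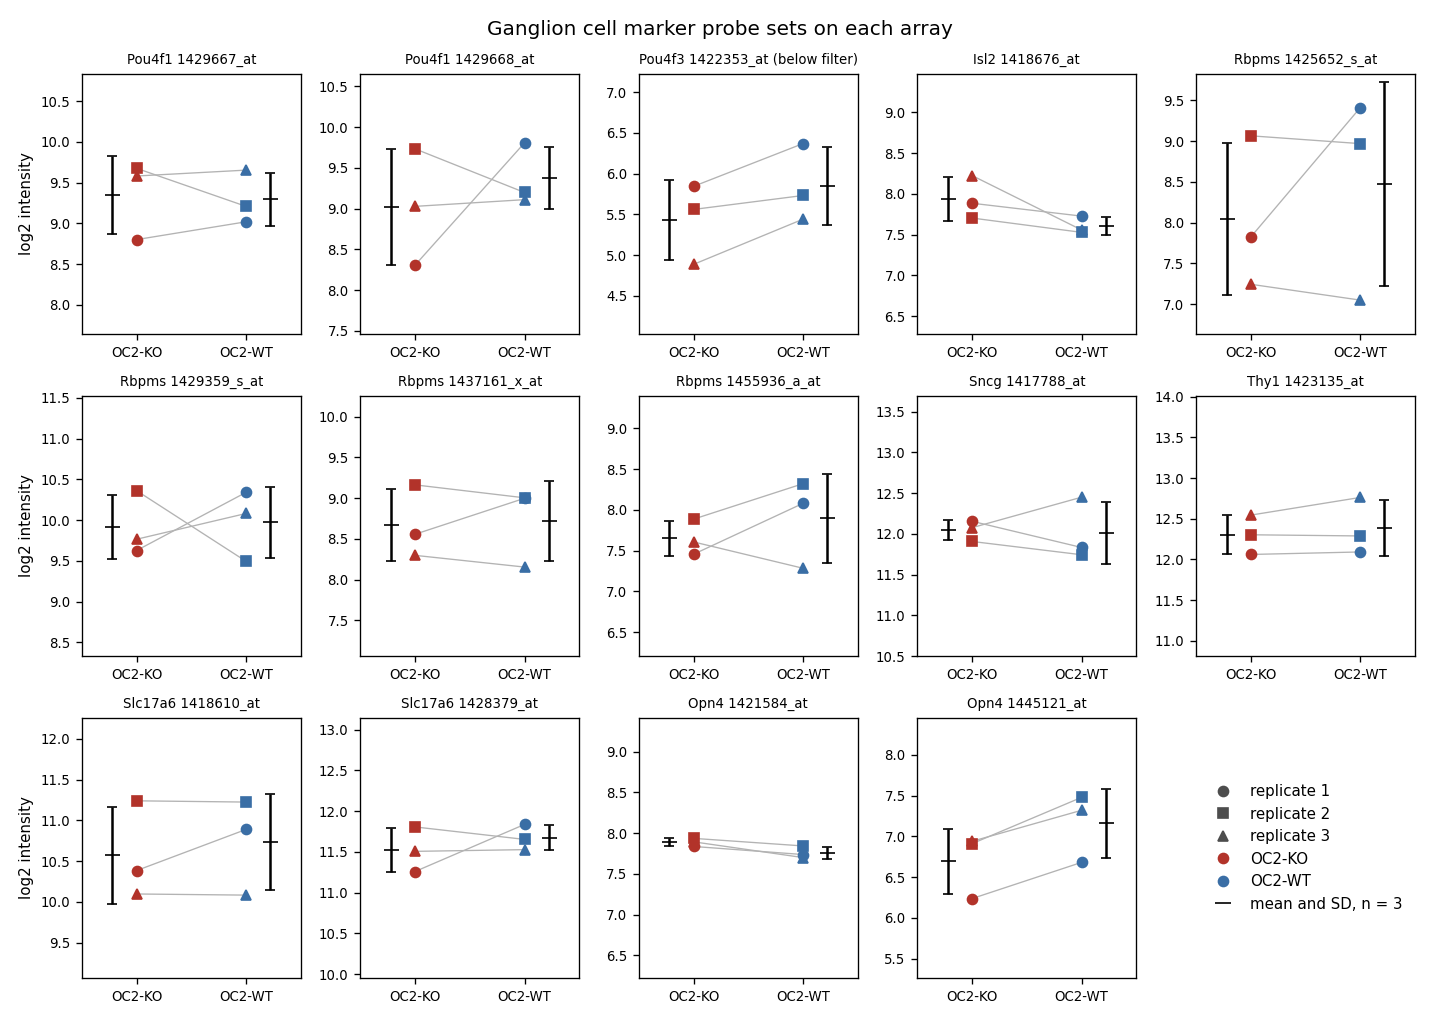
Log2 intensity of each of the 14 marker probe sets (y axis, each panel with its own range) on the OC2-KO arrays (left, red) and OC2-WT arrays (right, blue). Symbols give the replicate number, grey lines join equally numbered arrays, and black bars are the mean and SD of 3 arrays; in every panel the symbols of the genotypes overlap in range.

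Among the transcription factors, Pou4f1 encodes Brn3a, a POU-homeodomain protein of most ganglion cells. Its probe set 1429667_at read 8.80, 9.67 and 9.58 on the OC2-KO arrays, against 9.02, 9.21 and 9.65 on the OC2-WT arrays. The OC2-WT values all lay inside the OC2-KO range, whose low end was set by array 1. The means were 9.35 ± 0.48 in OC2-KO and 9.29 ± 0.33 in OC2-WT retinas (SD, n = 3 each), a difference of 0.06 (SE 0.31, 95% interval -0.68 to 0.79) that leaves room for an OC2-KO level between 0.626 and 1.73 times the OC2-WT level. The other Pou4f1 probe set, 1429668_at, was designed from the same expressed sequence and read 8.31, 9.73 and 9.03 on OC2-KO arrays, against 9.81, 9.20 and 9.11 on OC2-WT arrays. Here OC2-KO array 1 was the lowest of the 6 and OC2-WT array 1 the highest, while OC2-KO array 2 exceeded its OC2-WT partner by 0.54. Its difference of -0.35 (SE 0.40) had an interval from -1.28 to 0.58, so that the probe sets of Pou4f1 differed in sign and neither was resolved from 0.

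Pou4f3 encodes Brn3c, a related factor found in a smaller group of ganglion cells. Its only probe set, 1422353_at, stayed below the filter, with 5.84, 5.56 and 4.89 on OC2-KO arrays, against 6.37, 5.73 and 5.44 on OC2-WT arrays. Each OC2-KO array was below the OC2-WT array of its number, by between 0.17 and 0.55, but the genotypes overlapped. When tested without the filter, limma gave a difference of -0.42 with an interval from -1.42 to 0.58 and an adjusted p of 1.00.

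Isl2 encodes a LIM-homeodomain protein of ganglion cells that project to the opposite side of the brain. It had the highest positive difference of the markers. The OC2-KO arrays read 7.88, 7.70 and 8.22, against 7.73, 7.53 and 7.56 on the OC2-WT arrays. Every OC2-KO array exceeded the OC2-WT array of its number, by 0.16, 0.18 and 0.67, and OC2-KO array 2 still lay below OC2-WT array 1. The means were 7.94 ± 0.26 and 7.60 ± 0.11 in OC2-KO and OC2-WT retinas (SD, n = 3 each), and the difference of 0.33 (SE 0.22) had an interval from -0.19 to 0.86, or an OC2-KO level between 0.875 and 1.81 times the OC2-WT level. Without both arrays numbered 3 the difference was 0.17.

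Rbpms encodes an RNA-binding protein that is used as a pan-ganglion cell marker, and it was covered by 4 probe sets. By the manufacturer's naming, the endings _s_at and _x_at mark probes that other transcripts may share, and _a_at marks probes common to several forms of 1 gene. Probe set 1455936_a_at read 7.46, 7.89 and 7.61 on OC2-KO arrays, against 8.08, 8.32 and 7.28 on OC2-WT arrays. OC2-WT array 3 was the lowest of these 6 and the other 2 OC2-WT arrays the highest, and the difference was -0.25 (SE 0.31, interval -0.98 to 0.49).

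The other Rbpms probe sets differed by -0.43 (1425652_s_at, SE 0.70), -0.05 (1429359_s_at, SE 0.31) and -0.05 (1437161_x_at, SE 0.34). For 1425652_s_at the values were 7.82, 9.07 and 7.24 on OC2-KO arrays, against 9.41, 8.97 and 7.05 on OC2-WT arrays. Both arrays numbered 3 were the lowest of the 6, on average 1.67 below the other 4, which was the widest such gap of any marker probe set, and the interval of the genotype difference was accordingly the widest, from -2.08 to 1.21. All 4 Rbpms probe sets had a lower OC2-KO mean and a negative difference in pair 1, and for 3 of the 4 pair 3 went the other way. The exception was 1429359_s_at, with 9.63, 10.36 and 9.76 on OC2-KO arrays, against 10.34, 9.49 and 10.08 on OC2-WT arrays.

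Sncg, or gamma-synuclein, is a small cytoplasmic protein abundant in ganglion cell bodies and axons. It read 12.15, 11.91 and 12.08 on OC2-KO arrays, against 11.83, 11.74 and 12.45 on OC2-WT arrays. OC2-WT array 3 was the highest of the 6 and the 2 remaining OC2-WT arrays the lowest, so that the OC2-KO arrays fell between them. The means were 12.05 ± 0.13 in OC2-KO and 12.01 ± 0.38 in OC2-WT retinas (SD, n = 3 each), a difference of 0.04 (SE 0.26) whose interval allowed an OC2-KO level of 0.676 to 1.56 times the OC2-WT level.

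Thy1 is a surface glycoprotein whose promoter is widely used to label ganglion cells. Its values were 12.06, 12.30 and 12.54 on OC2-KO arrays, against 12.09, 12.29 and 12.76 on OC2-WT arrays. Equally numbered arrays were almost level in pairs 1 and 2, at -0.03 and 0.01, and array 3 was the highest in each genotype. The difference was -0.08 (SE 0.26, interval -0.69 to 0.53), an OC2-KO level of 0.620 to 1.45 times the OC2-WT level.

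Slc17a6 encodes the vesicular glutamate transporter VGLUT2, which fills the synaptic vesicles of ganglion cell axons. Probe set 1428379_at read 11.26, 11.81 and 11.51 on OC2-KO arrays, against 11.84, 11.65 and 11.53 on OC2-WT arrays. OC2-KO array 1 was the lowest and OC2-WT array 1 the highest of the 6, with OC2-KO array 2 next to it. The difference was -0.15 (SE 0.23, interval -0.69 to 0.39). Probe set 1418610_at read 10.38, 11.24 and 10.10 on OC2-KO arrays, against 10.89, 11.23 and 10.08 on OC2-WT arrays. Its pairs 2 and 3 were level, at 0.015 and 0.014, and pair 1 differed by -0.50, so that the mean difference of -0.16 (SE 0.41, interval -1.11 to 0.80) came from pair 1. Both arrays numbered 3 were again the lowest, by 0.84 on average against the other 4.

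Opn4 encodes melanopsin, the photopigment of the intrinsically photosensitive ganglion cells that set the body clock and the pupil reflex. Its probe sets pointed in opposite directions, each in all 3 pairs. Probe set 1421584_at read 7.84, 7.94 and 7.89 on OC2-KO arrays, against 7.74, 7.84 and 7.70 on OC2-WT arrays. The OC2-KO arrays were higher by 0.10, 0.09 and 0.19, although OC2-KO array 1 lay just below OC2-WT array 2, and the difference was 0.13 (SE 0.19, interval -0.32 to 0.58).

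Probe set 1445121_at of Opn4 read 6.24, 6.91 and 6.94 on OC2-KO arrays, against 6.68, 7.48 and 7.32 on OC2-WT arrays. The OC2-KO arrays were lower by 0.44, 0.57 and 0.38, while OC2-WT array 1 lay below OC2-KO arrays 2 and 3. The means were 6.70 ± 0.40 and 7.16 ± 0.42 in OC2-KO and OC2-WT retinas (SD, n = 3 each), and it therefore passed the filter through its OC2-WT mean alone. Its difference of -0.46 (SE 0.31, interval -1.20 to 0.27) was the most negative of the markers. With the replicate number as a block in limma, which leaves 2 residual degrees of freedom, the SE was 0.15, and this was the 1 of 13 marker probe sets with an unadjusted p under 0.05 (0.0252, adjusted p = 1.00). The annotation used here does not say which form of the melanopsin transcript either probe set reads.

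**Figure D2:**
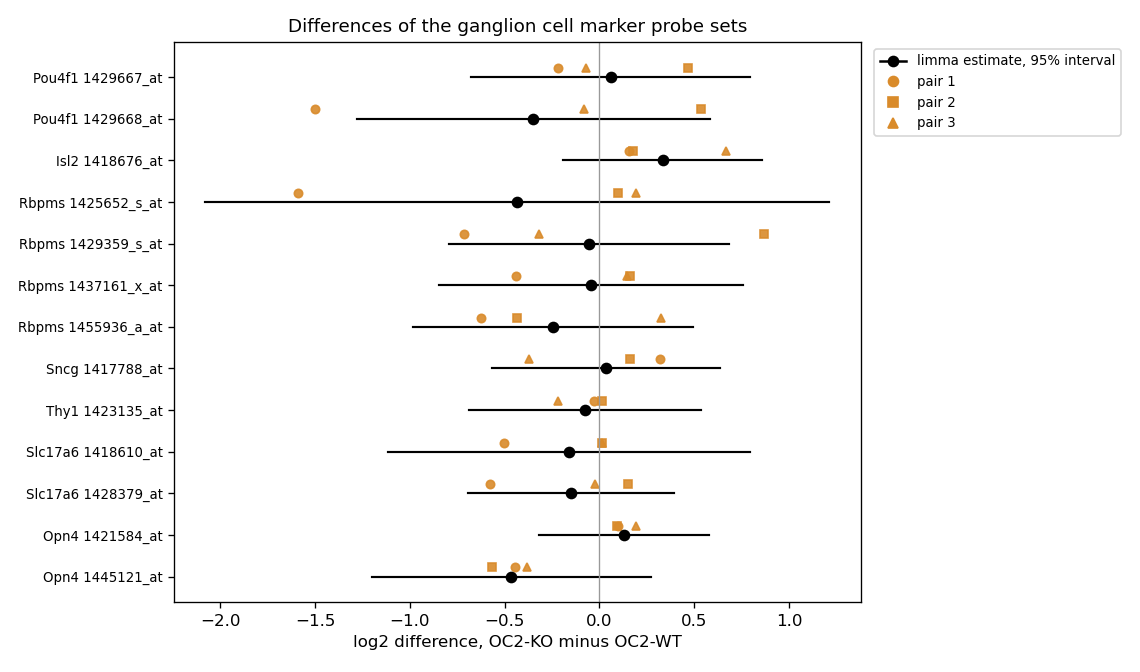
Log2 difference of OC2-KO minus OC2-WT (x axis) for the 13 marker probe sets that passed the filter. Black points and lines are the limma estimate and its 95% interval over 6 arrays, and orange symbols the differences within the 3 pairs of equally numbered arrays; every interval crosses 0, and pair 1 lies far left for a Pou4f1 and an Rbpms probe set.

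Sequence just upstream of the start sites was available in RefSeq for 7 of the 10 markers, in 8 entries of mouse build GRCm38.p6 (Pou4f3, Rbpms and Thy1 had none). The Onecut core letters ATCAAT and ATCGAT were searched on both strands over the 250 bases before each start. Of all 32851 promoters in the table, 6.72% held ATCAAT, 0.728% held ATCGAT and 7.4% held either. Among the 8 marker entries, 1 did, that of Sncg, with ATCAAT starting 19 bases before the start. It is shown with the match in capitals, beside that of Opn4, the marker with the opposed probe sets, which had no match. Both lie on the minus strand of chromosome 14, Sncg at chr14:34374670-34374919 and Opn4 at chr14:34600143-34600392, and a match of letters says nothing of binding.
Sncg: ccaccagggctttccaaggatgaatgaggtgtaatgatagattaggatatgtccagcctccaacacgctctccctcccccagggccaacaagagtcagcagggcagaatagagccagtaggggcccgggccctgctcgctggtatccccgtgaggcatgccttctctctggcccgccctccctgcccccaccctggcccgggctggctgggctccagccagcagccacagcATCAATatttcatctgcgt
Opn4: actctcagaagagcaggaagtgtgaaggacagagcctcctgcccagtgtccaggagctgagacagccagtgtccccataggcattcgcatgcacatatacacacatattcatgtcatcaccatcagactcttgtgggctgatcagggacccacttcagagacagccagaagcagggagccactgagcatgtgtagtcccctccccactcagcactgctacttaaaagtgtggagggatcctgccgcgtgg

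Which arrays were low depended on the pair. In pair 1, 10 of the 13 marker probe sets were lower in OC2-KO, against 52.5% of all probe sets. The median difference was -0.44, where the median over all probe sets was -0.02. In pair 2, 2 of 13 were lower (50.8% of all probe sets) with a median of 0.15. In pair 3, 7 of 13 were lower (50.5% of all probe sets) with a median of -0.02. Several of these probe sets read the same gene, 4 of them Rbpms. With the brightest passing probe set of each of the 7 genes, the medians were -0.03, 0.16 and -0.07 in pairs 1, 2 and 3. Thus the pairs did not share a direction: OC2-KO array 1 lay below its partner for most marker probe sets, OC2-KO array 2 above it. OC2-KO array 1 was the lowest of the 6 arrays for 5 of 13 marker probe sets, against 23.5% of all probe sets. OC2-WT array 3, 1 of the pair with the wide Actb difference, was lowest for another 5, against 21.8% of all probe sets. The part of RNA quality in these values was not tested.

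With each gene represented by its brightest probe set that passed, 4 of the 7 marker genes had a higher and 3 a lower OC2-KO mean. Their median difference was 0.04, beside -0.0048 over all 11065 genes, and their median absolute difference was 0.078, beside 0.115 over all genes. When the probe sets of a gene were averaged instead, the median was -0.15.

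Further genes associated with ganglion cells were read from 3 lists, described by counts since their members were not chosen blind to the data. Not all are confined to these cells: the study places Sox4 in amacrine cells too and used Isl1 as a bipolar cell marker. The counts therefore do not report on ganglion cells alone. Of the 55 listed genes, 41 passed the filter. Of these, 31 had a lower and 10 a higher OC2-KO mean, where 51.2% of all 11065 genes were lower and 48.8% higher. Of the 41, 0 had an adjusted p under 0.05 and 0 an unadjusted p under 0.05 in limma. A gene that passes through 1 genotype only is bound to be lower in the other, which applied to 1 of the 41, Adcyap1. With no filter, 36 of the 52 genes with a probe set were lower and 16 higher. In 2 of the 41, all OC2-KO arrays lay below all OC2-WT arrays, against 202 of 11065 over all genes.

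Transcription factors of ganglion cell fate and subtypes had 14 of 23 genes above the filter, 12 with a lower and 2 with a higher OC2-KO mean, and a median difference of -0.18. Irx2, an Iroquois homeodomain factor, was the one without overlap, at 6.99, 7.46 and 7.54 on OC2-KO arrays, against 7.88, 7.85 and 7.61 on OC2-WT arrays, a difference of -0.45 (SE 0.24, limma adjusted p = 1.00). Isl1, the LIM-homeodomain factor of ganglion cells that also marks bipolar and starburst amacrine cells, differed by -0.32 (SE 0.25), Irx6 by -0.30 (SE 0.26) and Ebf1, a helix-loop-helix factor, by -0.29 (SE 0.23). On OC2-KO array 1, 0 of the 14 genes were above their own mean over the 6 arrays. Without that array the count with a lower OC2-KO mean was 8 of 14 and the median -0.10.

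Axon and surface genes had 14 of 16 above the filter, again 12 lower and 2 higher, with a median of -0.18. Chrnb3, a nicotinic acetylcholine receptor subunit, read 7.54, 7.48 and 6.57 on OC2-KO arrays, against 7.67, 7.84 and 7.57 on OC2-WT arrays, and did not overlap. Its difference was -0.50 (SE 0.31, limma adjusted p = 1.00), with the lowest value on OC2-KO array 3. The adhesion molecule L1cam differed by -0.36 (SE 0.32), the heavy neurofilament Nefh by -0.25 (SE 0.24) and the ubiquitin hydrolase Uchl1 by -0.20 (SE 0.26). Without OC2-KO array 3 the lower count was 7 of 14 and the median -0.02. It was 9 of 14 (-0.080) without OC2-WT array 3, 8 of 14 (-0.049) without both, and 8 of 14 (-0.063) with array weights.

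Genes of ganglion cell subtypes and of the melanopsin pathway had 13 of 16 above the filter, 6 higher and 7 lower, with a median of -0.02. Col25a1, a transmembrane collagen, differed by 0.46 (SE 0.30). Adcyap1, the peptide PACAP that melanopsin cells release, differed by -0.46 (SE 0.39), with its lowest value, 5.93, on OC2-KO array 1. Its means were 6.75 in OC2-KO and 7.20 in OC2-WT retinas, so that it passed through OC2-WT alone, and without it the list had 6 higher and 6 lower. Gna14, a Gq-class G protein subunit through which melanopsin can signal, differed by 0.21 (SE 0.53), and its OC2-KO arrays spread between 6.32 and 8.35.

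Markers of neighbouring cell types varied over the same arrays. Horizontal cell markers, the population the study followed, had 5 of 8 genes above the filter, each with a lower OC2-KO mean and a median of -0.57. In 2 of the 5, Calb1 and Septin4, the OC2-KO arrays lay below without overlap, against 202 of 11065 over all genes. Onecut1 was among the 5 through its OC2-WT mean alone. Over the 7 horizontal cell genes with a probe set, filter aside, 6 were lower and 1, Gja10, higher (Gja10 is named after its value was seen). On OC2-KO array 1 the median deviation of the 5 genes from their means was -0.66. That of the starburst and displaced amacrine list was -0.41 and that of the ganglion cell markers -0.28. The log2 of the summed intensity of the 5 horizontal cell genes was 13.0 to 13.4 on OC2-KO arrays, against 13.6 to 13.9 on OC2-WT arrays, with Calb1 and Septin4 making up 78% of the sum. For the 7 ganglion cell markers it was 13.7 to 13.9 on OC2-KO arrays, against 13.7 to 14.1 on OC2-WT arrays, with Thy1, Sncg and Slc17a6 making up 85.6%. Such sums follow the brightest probe sets.

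Starburst and displaced amacrine cells share the ganglion cell layer. The list named after them is not confined to them: the study used Gad1 and Slc6a9 to mark GABAergic and glycinergic amacrine cells. Of its 10 genes above the filter, 8 had a lower OC2-KO mean (7 of 9 without Slc18a3, which passed through OC2-WT alone), with a median of -0.09. Chat and Slc5a7 did not pass. The log2 summed intensity was 14.7 to 15.1 on OC2-KO arrays, against 15.0 to 15.1 on OC2-WT arrays. Calb2 made up 33.7% and Gad1 33.2% of this sum. Pigment epithelium markers, from the tissue behind the retina, passed in 5 of 7, each of the 5 with a lower OC2-KO mean and a median of -0.66. With no filter, 5 of the 7 were lower and 2, Best1 and Mlana, higher, with a median of -0.47. The 5 that passed had a log2 summed intensity of 13.7 to 16.0 on OC2-KO arrays, against 14.5 to 16.3 on OC2-WT arrays, lowest on OC2-KO array 1. Ttr made up 82.8% of this sum. Rod markers summed to 17.1 to 18.6 on OC2-KO arrays, against 17.3 to 18.8 on OC2-WT arrays and were lowest on array 2 of each genotype. Of the myelin genes of the optic nerve head, 2 of 7 with a probe set passed. The part of these tissues in the ganglion cell values was not tested.

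**Figure D3:**
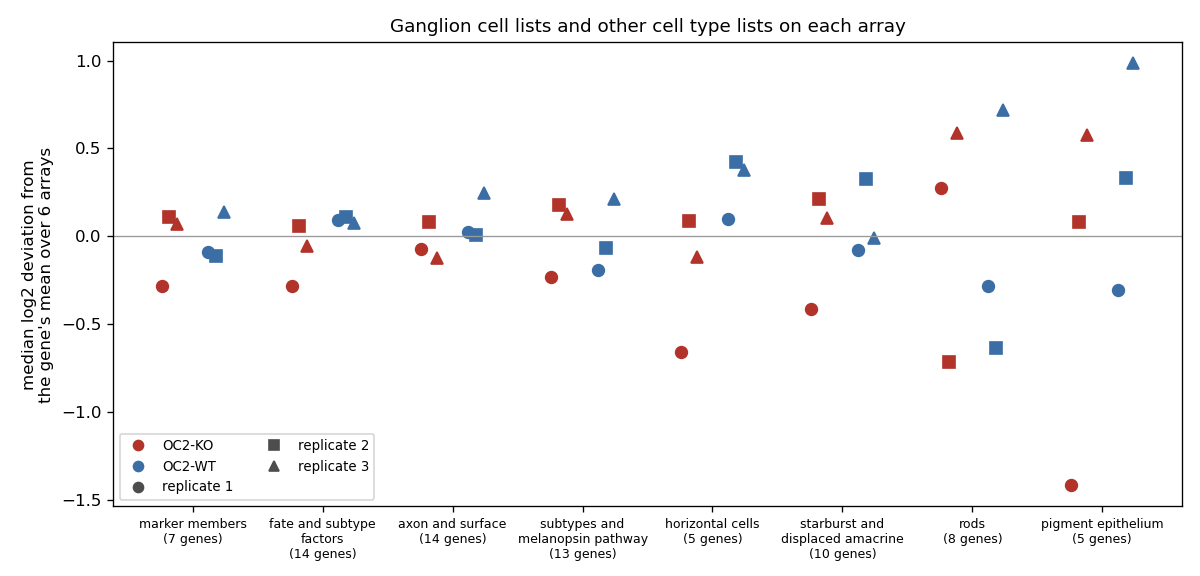
Median log2 deviation of each gene list from its genes' means over the 6 arrays (y axis), for 8 lists (x axis, with the number of genes above the filter), OC2-KO arrays in red left of OC2-WT arrays in blue, symbols giving the replicate number. The ganglion cell markers spread between -0.28 on OC2-KO array 1 and 0.14 on OC2-WT array 3. For the horizontal cell list and the fate and subtype factors, all OC2-WT arrays lie above all OC2-KO arrays, but by narrow margins. In the horizontal cell list, OC2-KO array 2 is at 0.086 and OC2-WT array 1 at 0.096. For the fate and subtype factors, OC2-KO array 2 is at 0.061 and OC2-WT array 3 at 0.074. The horizontal cell list includes Onecut1, which passed the filter through OC2-WT alone.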

How the data were processed

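The authors extracted total RNA, amplified and biotin-labelled it, and processed the scans with MAS5, of which no version is stated. The authors deposited its output as linear intensity values for 45101 probe sets on 6 arrays. Every array had a 2% trimmed mean of 500, so that a shift shared by all genes cannot be seen. Detection calls were not used here. The number of arrays limits the precision.

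Gene names were those of the platform annotation, where 34945 probe sets had 1 symbol, 932 several and 9160 none, and 34741 of the first matched RefSeq genes of GRCm38.p6. No 2 arrays were identical. After 64 control probe sets were left out, the log2 of the deposited intensity was taken and probe sets with a mean above 7 in either genotype were kept, as in the study's methods. Genotypes were compared with limma 3.58.1 in R 4.3.3 (lmFit and eBayes, no block, two-sided, 4 residual degrees of freedom), adjusted by Benjamini-Hochberg over 21176 probe sets. On simulated data, an adjusted p under 0.05 was reached by 1 of 50 probe sets given a log2 change of 1. It was reached by 24 of 50 given a change of 2, and by 3 of 20976 given none. The simulated noise was independent between arrays, whereas equally numbered arrays here deviated together, so these counts need not hold for the real arrays. In the real data the smallest adjusted p of any probe set was 0.21 in limma. The Onecut2 probe sets, which differed by 2.27 to 2.84 on the log2 scale, were thus not called. Replicate numbers paired the arrays, since the deviations of equally numbered arrays from their genotype means correlated at 0.576, 0.590 and 0.585. Those of others correlated at -0.429 to -0.135. Deviations cancel within each genotype, so negative values follow from the positive ones and are not separate evidence. Brightness was used to pick 1 probe set per gene and enters the list sums, but levels of different probe sets were not read as relative amounts of RNA.

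All probe sets of the markers are given, and of each further list its counts, its median and up to 4 genes with the smallest p-values. The markers and lists were chosen with earlier results of these data known. Alternatives were array weights, an intensity trend, a floor at 6, the filter at 8 or omitted, median centring, quantile normalization, the replicate block, the methods' t-test, another choice of probe set per gene, and leaving out arrays.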

Additional observations from a re-analysis of the deposited data

How the results depend on the processing

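Over 14 marker probe sets and 18 alternative settings (252 values), none that was tested had an adjusted p under 0.05 in limma or in the methods' t-test, with adjusted p between 0.998 and 1.00. The count of all probe sets at an unadjusted p under 0.05 was 209 and moved to 1144 with no filter, 127 with a filter at 8, 436 with array weights, 887 with the replicate block, and 209 to 560 when arrays were left out (560 without OC2-KO array 2); the methods' t-test gave 300. The median difference of the marker genes, 0.04, was -0.15 with the mean of each gene's probe sets, 0.18 with array weights (1 of 7 lower) and -0.12 to 0.14 when arrays were left out. The block changed no other call among the markers than that given for Opn4.

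The sign changed in 32 values over 9 probe sets, mostly when arrays were left out. The ranges were then -0.15 to 0.33 and -0.79 to 0.23 for Pou4f1 1429667_at and 1429668_at, -1.15 to 0.15, -0.52 to 0.28 and -0.33 to 0.15 for Rbpms 1425652_s_at, 1429359_s_at and 1437161_x_at, -0.11 to 0.26 for Sncg, -0.22 to 0.11 for Thy1, and -0.49 to 0.088 and -0.30 to 0.066 for Slc17a6 1418610_at and 1428379_at. With array weights, Rbpms 1429359_s_at was at 0.24 and Thy1 at 0.021. The cause was not tested. Isl2, Pou4f3, both Opn4 probe sets and Rbpms 1455936_a_at kept their sign in every setting. The filter at 8 left 4 probe sets untested besides Pou4f3, namely Isl2, both of Opn4 and Rbpms 1455936_a_at.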

Other observations

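Genes induced in ganglion cells after optic nerve injury were read as a further list. Of 12 genes, 6 passed the filter, 2 with a higher and 4 with a lower OC2-KO mean, with a median difference of -0.07 and 0 at an unadjusted p under 0.05 in limma. Atf3, a stress-induced transcription factor, read 8.94, 8.40 and 7.40 on OC2-KO arrays, against 8.44, 7.69 and 7.14 on OC2-WT arrays, higher in each of the 3 pairs but overlapping, with a difference of 0.49 (SE 0.48). Stmn4, a stathmin of neurons, differed by -0.41 (SE 0.31), lower in each pair. Tnfrsf12a, a receptor of the tumour necrosis factor family, spread between 5.29 and 8.30 on OC2-KO arrays, against 7.16 to 7.73 on OC2-WT arrays, and passed the filter through its OC2-WT mean alone.

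A list named after astrocytes, the glia that follow ganglion cell axons, had 4 of 6 genes above the filter. All 4, namely Gfap, Aldh1l1, Aqp4 and Slc1a2, had a higher OC2-KO mean, with a median of 0.21. Pax2 had no probe set. With no filter, 4 of the 5 genes with a probe set were higher and 1, Fgfr3, lower. Gfap, an intermediate filament protein of astrocytes and of reactive Müller glia, differed by 1.40 (SE 0.49), at an adjusted p of 1.00 in limma. All OC2-KO arrays lay above all OC2-WT arrays, against 216 of 11065 over all genes. The study also reported higher GFAP in adult OC2-KO retinas by quantitative PCR and saw the stained protein raised in Müller glia processes. The list therefore does not report on astrocytes alone.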
